A study of Caenorhabditis elegans with 2 samples.

Results

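The heterochronic pathway genes examined here are 10 named timing genes of Caenorhabditis elegans: lin-14, lin-28, lin-41, hbl-1, lin-42, lin-66, lin-29, lin-46, nhl-2 and ain-1. They were taken by name from the 19973 protein-coding genes on the 6 nuclear chromosomes. Each gene was read from 2000 bp upstream of its 5′ end to its 3′ end, in every list of regions bound by the tagged protein. The protein was SWSN-7, a subunit of SWI/SNF chromatin remodelling complexes, and the assay was ChIP-seq, which recovers the DNA attached to a protein. All samples were hermaphrodite L1 larvae of strain OP512, with genotype unc-119(tm4063) III and the transgene wgIs512, which adds a C-terminal GFP-FLAG tag to SWSN-7. The larvae had been starved after bleaching and were collected 6 hours after this synchronization, and the precipitation used an antibody against GFP.

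There were 2 biological replicates in 1 group, with no other genotype, stage or treatment, so the comparisons run between genes, between positions within a gene and between replicates. Control chromatin was not used here, and values there could not be set beside those of the tagged protein. The sources used here give neither the promoter of the transgene nor the state of the untagged swsn-7 gene. Whole larvae were used, so a site bound strongly in few cells and a site bound weakly in many cannot be told apart. The 2 replicates allow no test, and the differences below are descriptions of these libraries. Read depth is unknown, and it limits how firmly a weak entry can be read.

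The heterochronic pathway sets the order of larval cell fates, which has been followed mainly in the seam cells of the epidermis. LIN-14, LIN-28, HBL-1 and LIN-41 act early or hold back later programmes, and microRNAs turn them down as larvae grow. LIN-29 acts at the end of the pathway and drives the switch to adult epidermis. SWI/SNF complexes use ATP to move or evict nucleosomes. The values used for them here are the signal value of each entry, the peak caller's measure of enrichment as the authors deposited it, and its summit, the position of highest enrichment. The IDR list holds the 4087 entries that passed the authors' reproducibility filter, with signal values from 88.4 to 5142.4 and a median of 183.3. Looser candidate lists of 30000 entries each exist for the pooled replicates and for each replicate, and signal values are comparable only within a list.

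In the IDR list, 8 of the 10 heterochronic genes held at least 1 summit, and hbl-1 and lin-29 held none. Among all protein-coding genes 21.3% held a summit in the same window. The 8 genes shared 18 entries, which merged into 15 separate regions, and the median signal value of those entries was 300.8, against 183.3 over the whole list. Of these entries, 13 of 18 were among the 2043 strongest of the list. At least 2 summits lay in 7 of the 10 genes, against 3.25% of all protein-coding genes, and lin-14 held 5. In lin-41, lin-46 and ain-1 the 2 summits lay within 1 merged region, while the 5 of lin-14 lay in 5 separate regions. Both shares count summits, and the share of genes with at least 2 separate regions is not given here. At least 5 summits were held by 17 protein-coding genes, or 0.0851%. A long window has more room for summits: the median window was 7761 bp for the heterochronic genes and 4027 bp for all protein-coding genes. Among the 10759 protein-coding genes with a window at least as long as that of lin-46, the shortest here, 26.1% held a summit. The lin-46 window, of 3876 bp, is below the median of all protein-coding genes, so this share is not matched to the lengths of the set. No share with at least 2 summits is given here by window length. The genes had been chosen with earlier results of these data known, so these shares describe them and do not test them.

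Summits mostly lay upstream of the genes and not at the annotated starts. Of the 18 summits, 10 were upstream of the gene, 6 were intronic, 1 was in a 5′ UTR and 1 in a 3′ UTR. Of the upstream summits, 8 lay more than 500 bp from the nearest start of the same gene, and 1 lay within 300 bp of it. A summit from 1000 bp upstream to 500 bp downstream of any transcript start, called the promoter window here, was present in 6 of 10 genes, against 15.9% of all protein-coding genes. Of the 22 distinct starts of the 26 annotated transcripts, 8 had such a summit. No share over all IDR summits or all annotated starts is given here for the split by feature, the distances or the starts. Whether this placement differs from that of the whole list was therefore not tested. An intronic summit, clear of every exon of the gene, was present in lin-14 and lin-42, which is 2 of 10 genes, against 3.39% of all protein-coding genes. These 2 genes have the longest windows of the set, 22312 and 21124 bp, and no intronic share among genes of similar length is given here. Trans-splicing is common in C. elegans and removes the first part of many transcripts, so the distances given here run to annotated 5′ ends only.

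The sequences around 6 summits are printed as chosen examples. They include the strongest entry of the set, upstream of nhl-2, the second summit upstream of ain-1, and the lin-14 intronic entry with the highest pooled value. The others are the more GC-rich of the 2 intronic entries of lin-42, the upstream summit of lin-66, and the summit between lin-46 and its divergent neighbour. The stronger entries of ain-1 (882.4) and lin-42 (274.0) are not printed. Nor are the lin-14 windows at −159 and 1951, which held none of the motifs described below. The 6 therefore do not stand for the share of the 18 windows with a motif. Each of the 6 is 200 bp centred on the summit, except that of lin-46, which was trimmed to 147 bp to leave out an annotated UTR. They are given 5′ to 3′ on the strand of the gene, from the RefSeq genome of assembly WBcel235 (ce11). Capitals mark matches, on either strand, to the repeat GAGAGA and to 2 hexamers bound by nuclear receptors, which are AGGTCA in the lin-14 window and, in the nhl-2 and lin-42 windows, AGTGCA.
nhl-2, upstream, chrIII:4899828-4900027, minus strand: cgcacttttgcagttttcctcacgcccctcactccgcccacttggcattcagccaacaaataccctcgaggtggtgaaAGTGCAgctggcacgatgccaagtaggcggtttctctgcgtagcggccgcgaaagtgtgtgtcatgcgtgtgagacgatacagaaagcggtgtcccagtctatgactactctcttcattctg
ain-1, upstream, second summit, chrX:16612585-16612784, plus strand: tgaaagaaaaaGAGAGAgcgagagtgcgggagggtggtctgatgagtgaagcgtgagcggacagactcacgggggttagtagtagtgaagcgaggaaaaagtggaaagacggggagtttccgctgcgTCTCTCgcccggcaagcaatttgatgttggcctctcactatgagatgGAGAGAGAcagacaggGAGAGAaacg
lin-14, intron 3, chrX:11473327-11473526, plus strand: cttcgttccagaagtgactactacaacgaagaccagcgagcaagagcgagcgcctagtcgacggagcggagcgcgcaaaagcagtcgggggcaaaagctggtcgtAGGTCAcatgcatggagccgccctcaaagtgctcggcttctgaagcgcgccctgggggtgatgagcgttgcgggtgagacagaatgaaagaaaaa
lin-42, intron 6, chrII:1237989-1238188, minus strand: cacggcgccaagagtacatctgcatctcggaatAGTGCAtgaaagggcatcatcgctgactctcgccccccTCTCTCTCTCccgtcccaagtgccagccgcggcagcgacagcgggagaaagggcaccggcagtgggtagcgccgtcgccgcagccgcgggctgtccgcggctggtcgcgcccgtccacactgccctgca
lin-66, upstream, chrIV:13887640-13887839, plus strand: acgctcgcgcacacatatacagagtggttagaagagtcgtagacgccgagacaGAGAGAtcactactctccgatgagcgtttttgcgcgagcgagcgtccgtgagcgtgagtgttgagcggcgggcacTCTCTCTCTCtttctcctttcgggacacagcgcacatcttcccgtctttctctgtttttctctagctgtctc
lin-46, upstream, chrV:12967983-12968129, plus strand: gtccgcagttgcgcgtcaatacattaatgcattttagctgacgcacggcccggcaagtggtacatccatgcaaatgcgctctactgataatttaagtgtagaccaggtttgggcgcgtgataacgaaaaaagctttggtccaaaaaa

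The most frequent motif was a short purine repeat, which was similarly frequent over the whole list. This repeat, GAGAGA, is the core of sites bound by the Trithorax-like protein of Drosophila, and occurred in 8 of the 18 windows, or 44.4%, against 45.5% of all 4087 IDR windows of the same length. The hexamer AGTGCA, bound by the nuclear receptor DAF-12, occurred in 4 windows, or 22.2%, against 10.2%. In windows of 100 bp it occurred in 1, or 5.56%, against 6.09%, so its higher share was limited to the wider windows. The hexamer AGGTCA, bound by many nuclear receptors, occurred in 2 windows, or 11.1%, against 4.99%. The motif AAGTGAAA of the zinc finger factor BLMP-1 occurred in 1 window, or 5.56%, against 3.03%. The E-box CACGTG was in none of the 18 windows and in 7.32% of all IDR windows, and the GATA factor motif GATAAG was in none and in 5.82%. Any of these 6 motifs occurred in 11 of the 18 windows, or 61.1%, against 60.3% of all IDR windows. All were searched on both strands, and matches of GAGAGA within 1 repeat run overlap each other. A match describes the letters only.

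The windows were somewhat richer in G and C than the list as a whole. The GC content ranged from 38.5% to 68% with a median of 49%, against a range of 23.5% to 68.5% and a median of 44% over all IDR windows. The highest, 68% and 62.5%, were at the 2 intronic entries of lin-42, and the lowest was at the second summit upstream of lin-46. The part of base composition in the signal values was not tested.

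The strongest entry in each gene's window gave an order that was nearly the same in both replicates. In the pooled list the values were 1921.8 for nhl-2, 882.4 for ain-1, 649.3 for lin-28, 614.9 for lin-66, 481.7 for lin-41, 306.5 for lin-14, 274.0 for lin-42, 257.1 for lin-46, 80.0 for hbl-1 and 15.6 for lin-29. In replicate 1 the order was the same. In replicate 2, lin-66 with 391.6 stood above lin-28 with 379.9, and the other genes kept their places, with no entry listed for lin-29. The strongest entry of a gene was not always the same site: for lin-14 it was the promoter entry in replicate 1 (136.5) and an intronic entry in replicate 2 (203.5). Over all 4077 IDR entries with an overlapping entry in both replicate lists, the log2 ratio of replicate 2 to replicate 1 had a median of 0.44 and an SD of 0.44. This SD is the spread of that ratio over entries and not the error of a gap between 2 genes. It serves here as a scale only, and no gap was tested. Set against that spread, ain-1, lin-28, lin-66 and lin-41 were neighbours 0.44, 0.08 and 0.35 apart in log2 signal in the pooled list, about the SD or less. The same held for lin-14, lin-42 and lin-46, which were 0.16 and 0.09 apart. In replicate 2, however, ain-1 and lin-28 were 0.61 apart and lin-14 and lin-42 were 0.51 apart, both above the SD. In replicate 1, lin-66 and lin-41 were 0.49 apart, also above the SD. The gap of 1.12 between nhl-2 and ain-1, of 1.68 between lin-46 and hbl-1 and of 2.36 between hbl-1 and lin-29 each exceeded it, while lin-41 and lin-14 were 0.65 apart in the pooled list and 0.30 apart in replicate 1.

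**Figure D1:**
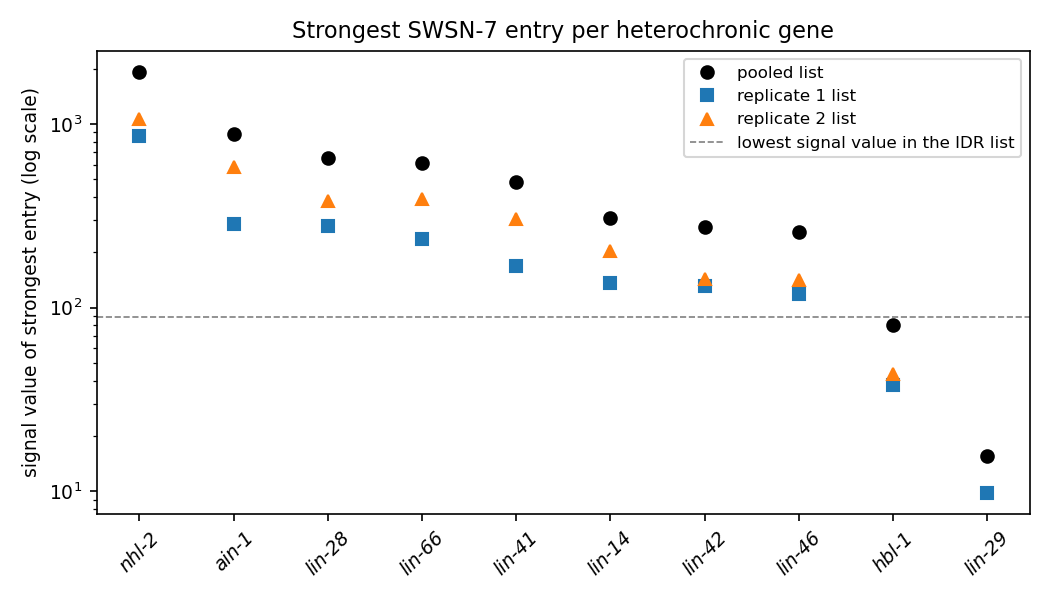
Signal value of the strongest entry in each gene's window (vertical axis, log scale) in the pooled list (circles), the replicate 1 list (squares) and the replicate 2 list (triangles). The dashed line is the lowest signal value of the IDR list, 88.4, which applies to the pooled values only; 8 genes lie above it, and hbl-1 (80.0) and lin-29 (15.6) lie below it.

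LIN-14 is a nuclear DNA-binding protein that specifies the earliest larval fates and is abundant in newly hatched larvae. Its gene lies on the plus strand of chromosome X from 11465560 to 11485871 and has 2 transcripts with separate starts, T25C12.1a.1 at the 5′ end and T25C12.1b.1 at position 14801 of the gene. The promoter entry had its summit at −159, with a signal value of 300.1 in the IDR list, 136.5 in replicate 1 and 177.8 in replicate 2. The other 4 entries were intronic. The first of these, at 1951, lay in intron 1 of T25C12.1a.1, which is 2818 bp long, and reached 301.5, with 108.9 in replicate 1 and 181.2 in replicate 2. An annotated ncRNA gene, T25C12.7, also covers that summit.

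The remaining 3 lin-14 summits stood inside intron 3 of T25C12.1a.1, an intron of 11174 bp that also contains the start of T25C12.1b.1. They lay at 6547, 7867 and 9271, with signal values of 119.3, 306.5 and 90.6. The middle entry had 104.0 in replicate 1 and 203.5 in replicate 2. Its pooled value was the highest of the gene by a small margin, against 301.5 at 1951 and 300.1 at −159. In replicate 1 it stood below both of these, which had 108.9 and 136.5. Its log2 ratio between replicates was 0.97, against 0.23 and 0.06 at the entries on either side. The promoter window of T25C12.1b.1 was free of IDR summits. The one nearest to its start lay at −5530, and the strongest pooled candidate in that window reached 39.3. The entry at 9271, 400 bp wide and close to the lowest value of the list, ranked 3722 in replicate 1 and 4839 in replicate 2.

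Below the IDR threshold, lin-14 held another 23 pooled entries with a median of 29.0, of which 19 were intronic, and the highest, at 17252, reached 59.1. In all it held 28 pooled entries, or 12.5 per 10 kb, against a mean of 2.87 over the windows of protein-coding genes. Its IDR entries came to 2.24 per 10 kb, against a mean of 0.528. Among the heterochronic genes this was exceeded by lin-46 with 5.16, lin-28 with 3.86, ain-1 with 3.69 and lin-66 with 2.53. These values count each summit, and the 2 summits of lin-46 lay in 1 merged region, as did the 2 of ain-1. The order by merged regions is not given here. In pooled entries per 10 kb lin-14 was the highest of the heterochronic genes, followed by lin-28 with 9.66 and ain-1 with 9.22. Not all of the 23 had a summit within 100 bp in both replicate lists. Among the 272 protein-coding genes with a window at least as long as that of lin-29, a group that includes lin-14, 44.9% held an IDR summit and 3.31% held at least 5. Other genes with 5 summits and the closest window lengths were hlh-30 and daf-5, with 4 and 5 intronic summits, then ncl-1, unc-43 and mnk-1, with 4, 4 and 3. Their strongest signal values were 254.9 for hlh-30, 674.8 for daf-5, 269.8 for ncl-1, 238.9 for unc-43 and 848.0 for mnk-1.

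LIN-42, the worm relative of the Period clock proteins, cycles with the moults. Its gene spans 19124 bp on the minus strand of chromosome II, from 1233236 to 1252359, and its 7 transcripts begin at 5 separate starts. Both IDR entries of the gene lay inside it, and none of the 5 promoter windows held a summit. The stronger, at 5292 from the gene's 5′ end, had a signal value of 274.0, with 130.6 in replicate 1 and 143.0 in replicate 2. It was in intron 1 of F47F6.1d.1, an intron of 8173 bp, at −3032 from the start of F47F6.1b.1, and an ncRNA gene, F47F6.15, also covers it.

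The weaker lin-42 entry lay in intron 6 of the same transcript, of 3559 bp, at −1120 from the start of F47F6.1a.1, and had 137.4, with 60.1 in replicate 1 and 74.7 in replicate 2. This is just outside the promoter window of that start. Between the 2 entries, a candidate at 9623 reached 65.5 in the pooled list but differed between replicates, with 11.2 in replicate 1 and 49.3 in replicate 2. IDR entries of lin-42 came to 0.947 per 10 kb, fewer than the 2.24 of lin-14 over a window of similar length.

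**Figure D2:**
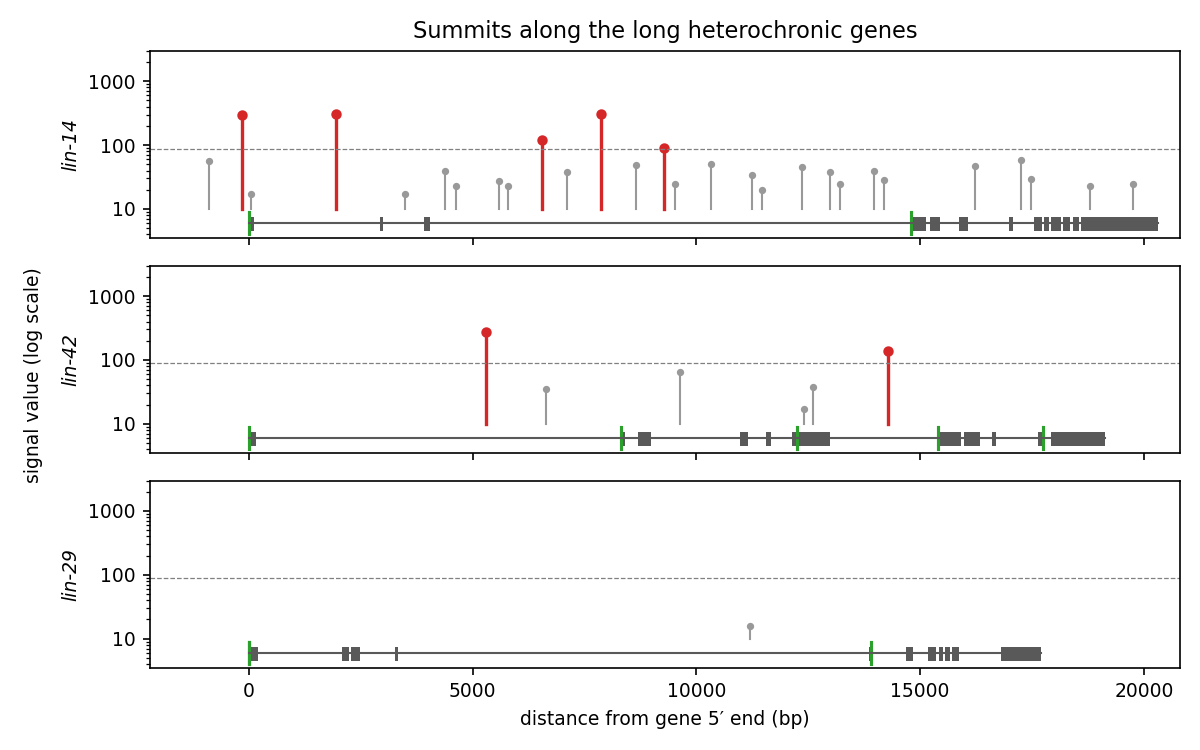
Summits along lin-14, lin-42 and lin-29, as the distance from the gene's 5′ end in bp (horizontal axis) and the pooled signal value (vertical axis, log scale). Red stems are IDR entries, grey stems are pooled candidates outside that list, the dashed line is the lowest IDR value (88.4), boxes are exons and green bars are transcript starts: 4 of 5 red stems of lin-14 and both of lin-42 stand in introns, and lin-29 has a single grey stem.

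LIN-29 is the zinc finger transcription factor that ends larval development of the epidermis. Its gene spans 17702 bp on the minus strand of chromosome II, from 11917642 to 11935343, with 3 starts, and held no IDR summit. Its only pooled entry was intronic, at 11197, with 15.6, which is close to the lowest value of that list, 14.9. Replicate 1 listed an entry of 9.8 in the window, with its summit more than 100 bp from the pooled one, and replicate 2 listed none. That is 0.508 pooled entries per 10 kb, against 12.5 for lin-14 and 2.84 for lin-42, which are of similar length. The lists hold only entries above a minimum, so weaker binding there was not detectable.

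HBL-1, a zinc finger transcription factor related to Drosophila Hunchback, acts in the second larval stage and had values just under the IDR threshold. The gene lies on the plus strand of chromosome X from 5822142 to 5827755. Its 4 pooled candidates were all upstream, at −1097, −888, −1898 and −1679, with 80.0, 61.2, 63.1 and 15.1. The first had 35.1 in replicate 1 and 43.4 in replicate 2, and the second 27.1 and 29.2. The third had no summit within 100 bp in either replicate list. The highest replicate 1 entry in the window, with 38.0, had its summit nearest to the fourth and overlapped the third as well. The 80.0 of hbl-1 stands just below the lowest IDR value of 88.4. The weakest IDR entries of lin-66 (89.2) and lin-14 (90.6) stand just above it, so these entries fall on either side of the threshold by a small margin. As a gene, only hbl-1 is close to it, since the strongest entries of lin-66 and lin-14 had 614.9 and 306.5. Next below the 80.0 of hbl-1 came a candidate upstream of ain-1, at −1834 with 77.6, and then the one inside lin-42, at 9623 with 65.5.

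LIN-28 is an RNA-binding protein that keeps larvae at an early stage and blocks maturation of a microRNA of this pathway. Its gene lies on the minus strand from 8407630 to 8410804, with 2 starts, each with an IDR summit nearby. The stronger entry had 649.3, with 279.7 in replicate 1 and 379.9 in replicate 2, and its summit lay 7 bp into F02E9.2b.1, in its 5′ UTR. In replicate 1 the summit lay at 852 from the gene's 5′ end and in replicate 2 at 894, on either side of the start of F02E9.2b.1 at 884. The other entry, at −559 from the start of F02E9.2a.1, had 469.7, with 187.5 in replicate 1 and 288.2 in replicate 2. Both entries were within the strongest 14% of the list, and the one upstream did not reach the start of F02E9.2a.1.

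LIN-41, an RNA-binding protein of the TRIM-NHL family, represses the translation of lin-29 mRNA. Its gene lies on the minus strand from 9334800 to 9342496, and neither promoter window of its 2 starts held an IDR summit. A region further upstream carried 2 summits 200 bp apart. The summit at −1438 had 481.7, with 167.6 in replicate 1 and 301.7 in replicate 2. The other, at −1638, had 135.8, and the entries with summits within 100 bp of it had 61.6 in replicate 1 and 44.4 in replicate 2, a log2 ratio of −0.47. The nearest protein-coding start to both was that of lin-41 itself. Closer to the gene, at −217, there was only a pooled candidate of 21.9.

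LIN-66, a protein that lowers lin-28 expression, had a promoter entry and a weak entry near the 3′ end. The gene lies on the plus strand of chromosome IV from 13888079 to 13893986. The promoter entry, printed above, had its summit at −339, with 614.9, and reached 235.4 in replicate 1 and 391.6 in replicate 2. The entry at 5264, in the 3′ UTR, had 89.2 and ranked 4056 of 4087 in the list, with 45.2 in replicate 1 and 43.1 in replicate 2. No pooled entry lay in the promoter window of the internal start of B0513.1b.1.

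LIN-46, a gephyrin-like protein, acts in opposition to LIN-28 by limiting the activity of HBL-1. Its gene is short, lying on the plus strand of chromosome V from 12968855 to 12970730, and it shares its upstream region with the divergent gene R186.8. The stronger summit, at −825, had 257.1, with 118.7 in replicate 1 and 141.0 in replicate 2, and was at −48 from the start of R186.8. The second, 199 bp away at −626, had 214.0, and the entries within 100 bp of it had 85.8 in replicate 1 and 126.1 in replicate 2. This one was at −247 from the start of R186.8. Both summits were therefore nearer to R186.8 than to lin-46, and ChIP-seq does not show which gene a site serves.

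NHL-2 and AIN-1 work with the microRNA machinery that turns the early genes down, and their strongest entries were the highest of the set. NHL-2, a TRIM-NHL protein that aids the microRNA-induced silencing complex, is encoded on the minus strand of chromosome III from 4893658 to 4899085. Its single IDR entry, at −843, had 1921.8, rank 14 of 4087, with 858.9 in replicate 1, also rank 14 of that list, and 1068.6 in replicate 2, rank 16. The divergent gene tag-340 starts nearer, at −580 from the same summit, and the ncRNA gene F26F4.14 covers it. Within nhl-2 itself no candidate exceeded 26.2.

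AIN-1 is a GW182-family protein that binds Argonaute, and its gene lies on the plus strand of chromosome X from 16613451 to 16616871. A region of 726 bp upstream held 2 summits 203 bp apart, at −969 and −766, with 882.4 and 436.8. The first had 285.1 in replicate 1 and 581.4 in replicate 2, a log2 ratio of 1.03. The second had 130.4 in replicate 1 and 354.7 in replicate 2, a ratio of 1.44 by summits within 100 bp. Both ratios exceeded the median of 0.44 over all IDR entries by at least its SD of 0.44. The summit pairs of lin-41, lin-46 and ain-1 were spaced like those elsewhere: over the 111 pairs of summits in shared IDR regions, the lowest gap was 199 bp and the median 203 bp.

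**Figure D3:**
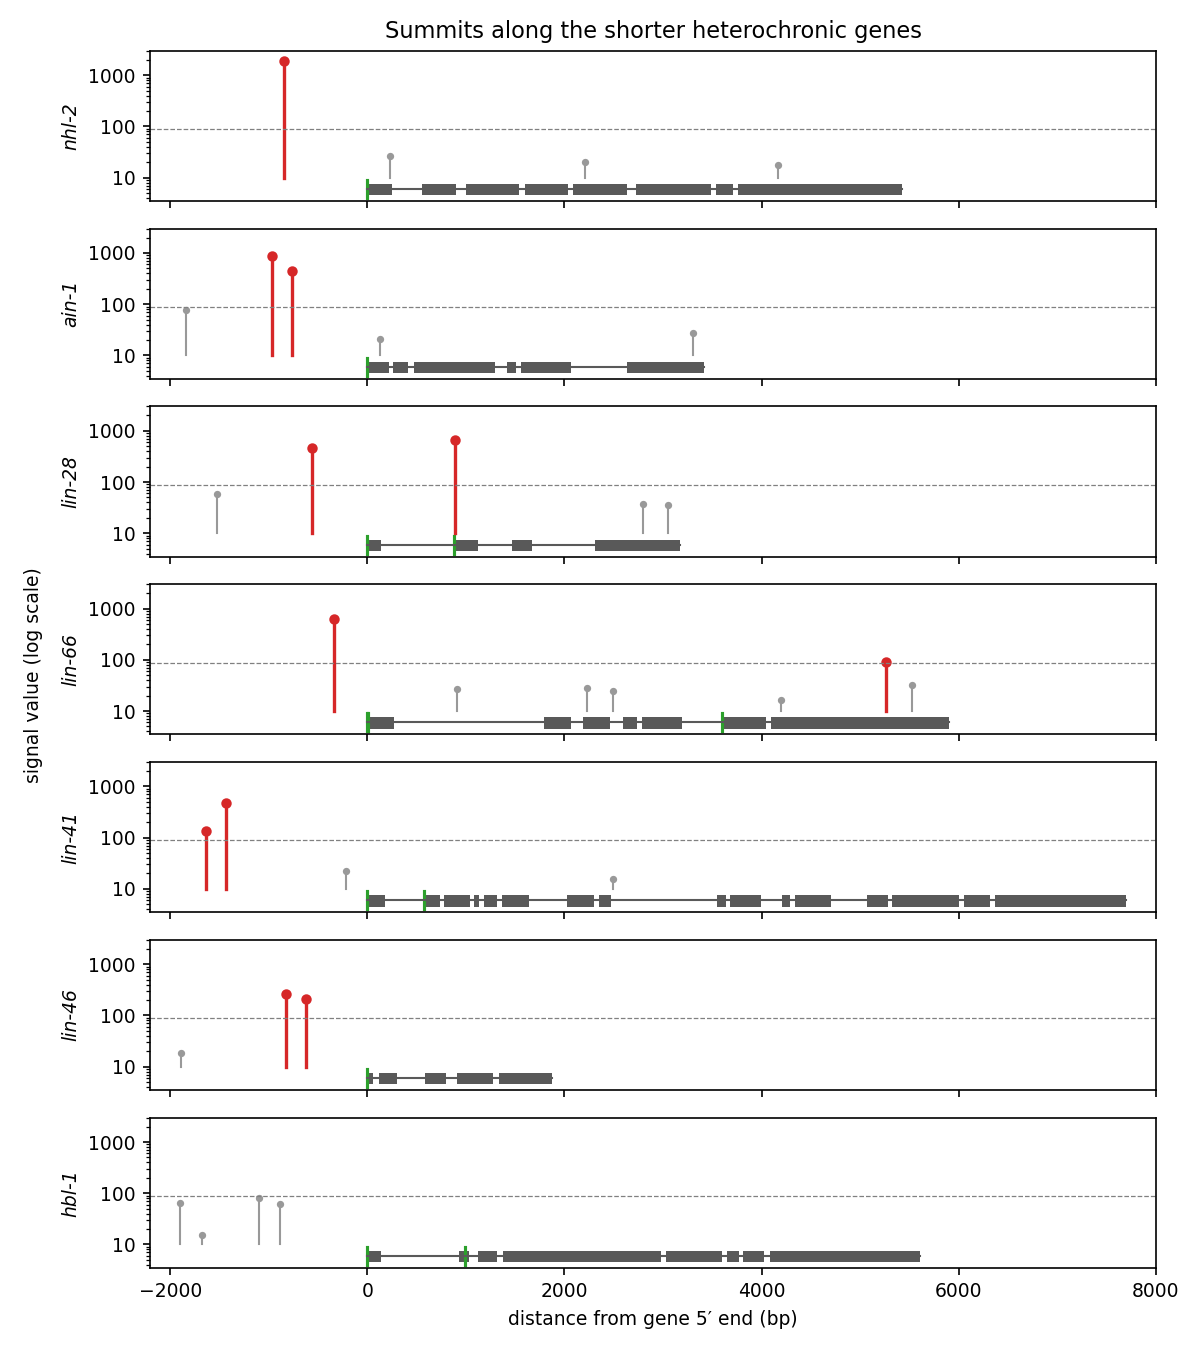
Summits along the 7 shorter genes, drawn as for the long genes, with the distance from the 5′ end in bp on the horizontal axis and the pooled signal value on the vertical axis (log scale). Red stems are IDR entries and grey stems are pooled candidates outside that list: the red stems stand upstream in nhl-2, ain-1, lin-41 and lin-46, before the first green start bar of lin-28 and at its second, and at both ends of lin-66, and hbl-1 has grey stems only.

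All 18 entries were listed in both replicates, by overlap of at least 1 bp and also by summits within 100 bp. Of all 4087 IDR entries, 4077 were so by overlap and 4004 by summits. The list itself was filtered for reproducibility by the authors, so this count describes the list and not these genes. The log2 ratio of replicate 2 to replicate 1 ranged from −0.07 to 1.03 with a median of 0.41 and an SD of 0.35 by overlap, against a median of 0.44 over all IDR entries. By overlap, the summit pairs of lin-41, lin-46 and ain-1 share a replicate entry. Matched by summits within 100 bp, the ratios ranged from −0.47 to 1.44 with a median of 0.41. Within the heterochronic genes, the weakest entries (lin-66 at 5264 and lin-14 at 9271) had ratios near 0, the lin-41 summit at −1638 had the lowest and the second ain-1 summit the highest.

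**Figure D4:**
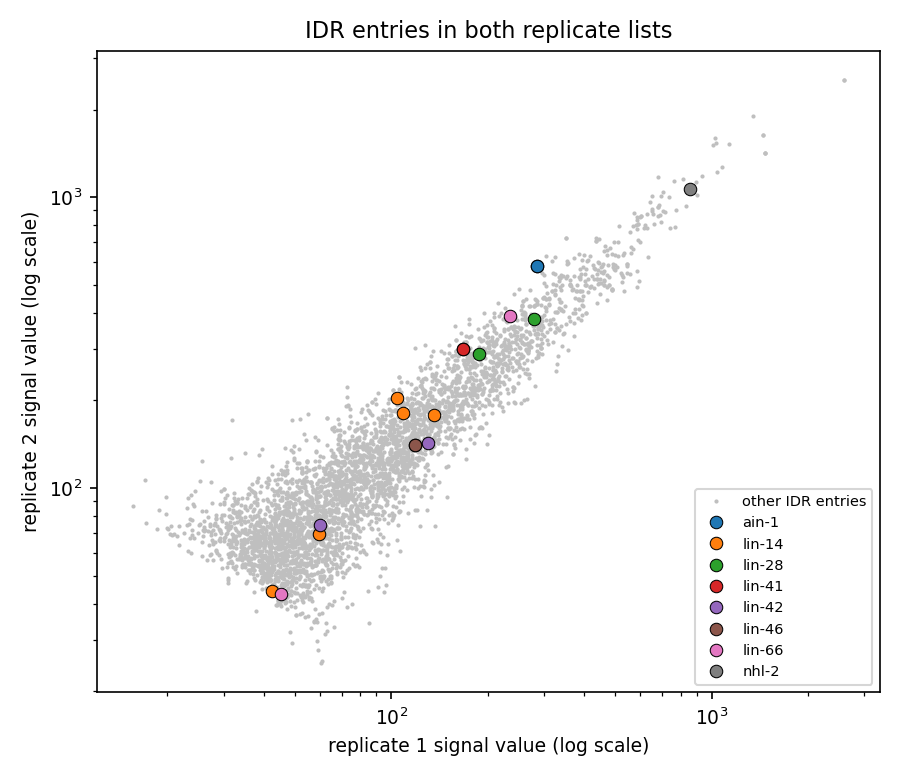
Signal value of each IDR entry in the replicate 1 list (horizontal axis) and the replicate 2 list (vertical axis), both on log scales, matched by overlap. Coloured points are entries of the heterochronic genes and grey points all others; nhl-2 lies near the top of the cloud, and ain-1 (285.1 in replicate 1, 581.4 in replicate 2) lies towards its upper edge.

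Of the 49 pooled candidates outside the IDR list, 25 were intronic, 9 upstream, 7 in coding exons, 7 in 3′ UTRs and 1 in a 5′ UTR. Their signal values ranged from 15.1 to 80.0 with a median of 28.4. The lin-14 gene accounted for 23 of them. Summits inside an annotated ncRNA gene numbered 3 of 18, or 16.7%, against 8.56% of all IDR summits.

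Other genes of the pathway carried SWSN-7 entries as well. On a list of 19 more that encode proteins, 15 held an IDR summit, 7 in a promoter window and 10 in an intron, and 7 held at least 2. The shares of all protein-coding genes, given above, were 21.3% with a summit, 15.9% in a promoter window, 3.39% in an intron and 3.25% with at least 2. A long window has more room for summits, and no share among genes of similar length is given here for these 19. Whether they differ from such genes was not tested. The strongest was upstream of puf-9, which encodes a Pumilio-family RNA-binding protein, with 1842.7 at −285, and 678.1 in replicate 1 and 1168.9 in replicate 2. The next were xrn-2, an exoribonuclease that degrades microRNAs, with 542.8, and myrf-1, a transcription factor needed for timely lin-4 expression, with 539.1. The xrn-2 summit, at −1221, was nearest to the start of another gene, Y48B6A.1. Entries also lay at din-1, encoding the corepressor of DAF-12, with 4 summits up to 527.0, and at kin-20, a casein kinase that acts with LIN-42, with 2 intronic summits up to 390.8. The nuclear receptor gene daf-12 had 1 intronic summit of 349.0, myrf-2 had 3 summits up to 347.7, and the zinc finger gene sea-2 had 4, all intronic, up to 323.3.

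The remaining 7 of these genes had lower values. The Argonaute genes alg-1 and alg-2 reached 209.8 and 141.9, ain-2, the paralogue of ain-1, 149.6, and lep-2, a Makorin, 129.1. The lep-2 summit, at −972, was nearest to the start of another gene, egrh-2. The nuclear receptor genes nhr-23 and nhr-85 reached 122.9 and 100.9, and blmp-1, a zinc finger factor, 120.9. No IDR summit lay in the windows of mab-10, a partner of LIN-29, dre-1, an F-box protein, apl-1, the amyloid precursor relative, or dcr-1, the Dicer enzyme. Their strongest pooled candidates were 39.7 for mab-10, 74.2 for apl-1 and 16.3 for dcr-1, and that of dre-1 stood between apl-1 and the lowest IDR value of 88.4. Of 5 noncoding genes, only lin-4, the microRNA that represses lin-14 and lin-28, had an IDR summit, at −428 with 90.2, and the protein-coding start nearest to it was that of F59G1.4. The candidate at mir-241 reached 84.8 in the pooled list, mir-48 had 1 of 18.2, and lep-5 and mir-84 had none.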

How the data were processed

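The 2 biological replicates formed 1 group. The deposited readme states that the authors mapped reads to ce11, listed candidate peaks per replicate and over pooled replicates, and derived the IDR list. The authors' signal value is an enrichment measure comparable within a list. The deposited −log10 q-values were 4.09 for every IDR entry, so the signal value ranked entries. The sources used here do not give the aligner, peak caller or filters. Candidate lists held 30000 entries each, so their lower end is set by that number. Read depth is unknown.

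Positions are 1-based in ce11 (WBcel235), with Ensembl release 115 gene models and the RefSeq genome. Summits were assigned from 2000 bp upstream of a gene to its end, for every gene whose window held them. Replicate values come from the strongest overlapping entry (at least 1 bp), or, for second summits of a region and candidates outside the IDR list, from summits within 100 bp. Motifs were searched in 200 bp windows. Scripts ran in Python 3.11.15 with numpy 2.4.6 and matplotlib 3.10.9, and window and feature rules were checked on constructed gene models. The genes and lists were chosen with earlier results of these data known. Named genes were the members, the other pathway genes, genes with a start nearer to a summit than the member's own, and up to 5 genes with as many summits as lin-14 and the closest window length. Of the wider pathway list, 1 gene was not analysed here. The long-window shares were added after seeing the data. Alternatives were other windows, the 2043 strongest entries, merged entries and single replicates.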

Additional observations from a re-analysis of the deposited data

How the results depend on the processing

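The counts depended most on the window. Started 500 bp upstream of the genes, it held summits in 4 of the 10 genes and 10 entries, and limited to the gene body, 4 genes and 8 entries. With a promoter window of 300 bp on each side, 2 genes and 2 starts had a summit. In 100 bp sequence windows, 7 of 18 held a motif, or 38.9%, against 43.1% of all IDR windows. Every other alternative stayed within 1.5 times the value reported. Those were the 2043 strongest entries, 1000 bp upstream, assignment to the nearest start only (6 genes), merged entries, a promoter window from 2000 bp upstream, introns of the longest transcript, and matching by summits. With 1 replicate's strongest entries in place of the IDR list, summits lay in 8 genes either way, with 16 to 19 entries, 6 genes with a promoter summit and 2 to 3 with an intronic one. No paired analysis was possible because the study has 1 group and no test was run.

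Control chromatin was not used here and depth is unknown. Binding below the lowest listed values was not detectable.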
